A study of Mus musculus with 69 samples.

Results

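Bone marrow–derived macrophages (BMDMs) of C57 mice were compared after 24 hours of interleukin-4 (IL-4) and under basal conditions, with 3 libraries per condition. These 6 RNA-seq libraries were taken by their labels from a table of 29 libraries of 5 mouse strains, within a series of 69 samples. C57 stands for C57BL/6J, and all groups came from female mice of 8 to 12 weeks. Marrow was cultured for 7 days with macrophage colony-stimulating factor (M-CSF), and cells were then left untreated (basal) or given mouse recombinant IL-4 at 20 ng/ml. Further groups were used for comparison: BALB (BALB/cJ), NOD (NOD/ShiLtJ), PWK (PWK/PhJ) and SPRET (SPRET/EiJ) BMDMs, each basal and after 24 hours of IL-4, a C57 time course with 2 libraries each at 0, 1, 6 and 24 hours, and Egr2 fl/fl BMDMs at the same times, also with 2 libraries each. Egr2 fl/fl cells carry loxP-flanked Egr2 alleles without LyzM-Cre and served as the controls of a myeloid Egr2 knockout. BMDMs grown in M-CSF are a model of macrophages in culture, with no other cells of a tissue. The methods call the libraries biological replicates but do not say whether each came from its own mouse, so p-values measure the spread between cultures or preparations.

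IL-4 is a cytokine of type 2 immunity, secreted mainly by T helper 2 cells, basophils and innate lymphoid cells. On macrophages it binds the IL-4 receptor alpha chain paired with the common gamma chain or with the IL-13 receptor alpha chain, and Janus kinases then phosphorylate STAT6, which moves to the nucleus and binds DNA. The resulting state, called alternative activation, is known for arginase, chitinase-like proteins, the mannose receptor and type 2 chemokines, and for roles in helminth defence, wound repair and the dampening of inflammation.

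The values are TPM (a level scaled for library size and transcript length, so that it can be compared between genes), and changes are differences of log2(TPM + 1), which understate the change of genes at low levels. Over the listed genes, TPM summed to between 652099 and 655727 in the basal libraries and between 629935 and 633111 with IL-4. The basal libraries held 13.9, 7.61 and 18.0 M tags and the IL-4 libraries 18.3, 13.7 and 7.02 M. Across genes, replicates correlated with r between 0.990 and 0.995, and libraries of different conditions with r between 0.966 and 0.975. Summed TPM of 12 macrophage markers was 28984 to 29764 under basal conditions and 25601 to 26573 with IL-4. Adgre1, which encodes F4/80, averaged 489 and 407 TPM, and Csf1r, the M-CSF receptor, 471 and 415 TPM. In bulk RNA, fewer cells of a type and less RNA per cell cannot be told apart.

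IL-4 raised 271 genes and lowered 182 of the 11907 genes tested, past 2-fold at an adjusted p below 0.05 (limma, Benjamini-Hochberg). Below, a gene called induced or repressed passed both limits. The induced genes were 2.28% and the repressed genes 1.53% of those tested. The counts depended on the pseudocount, with 412 and 350 genes at 0.1 TPM and 160 and 80 at 5 TPM in place of 1 TPM. At any fold, an adjusted p under 0.05 was reached by 1783 genes that were higher (15.0%) and 2443 that were lower (20.5%). Large changes were mostly rises, as 72 induced genes but 21 repressed genes changed by more than 4-fold, 28 against 2 by more than 8-fold, and 9 against 0 by more than 16-fold. The 3 IL-4 libraries lay above the 3 basal libraries for each of the 271 induced genes, which 16.9% of all tested genes did, and below them for 172 of the 182 repressed genes, which 23.0% of all tested genes did. The genes were called from these same libraries, so their separation follows largely from the call and is no further evidence. With 3 libraries against 3, an exact permutation test of a single gene cannot go below p = 0.10, so the test shares its estimate of spread over genes. In TPM, the induced genes grew from between 1.15% and 1.19% of all listed expression to between 4.51% and 4.75%, and the repressed genes went from between 7.38% and 7.66% to between 2.88% and 3.05%.

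**Figure D1:**
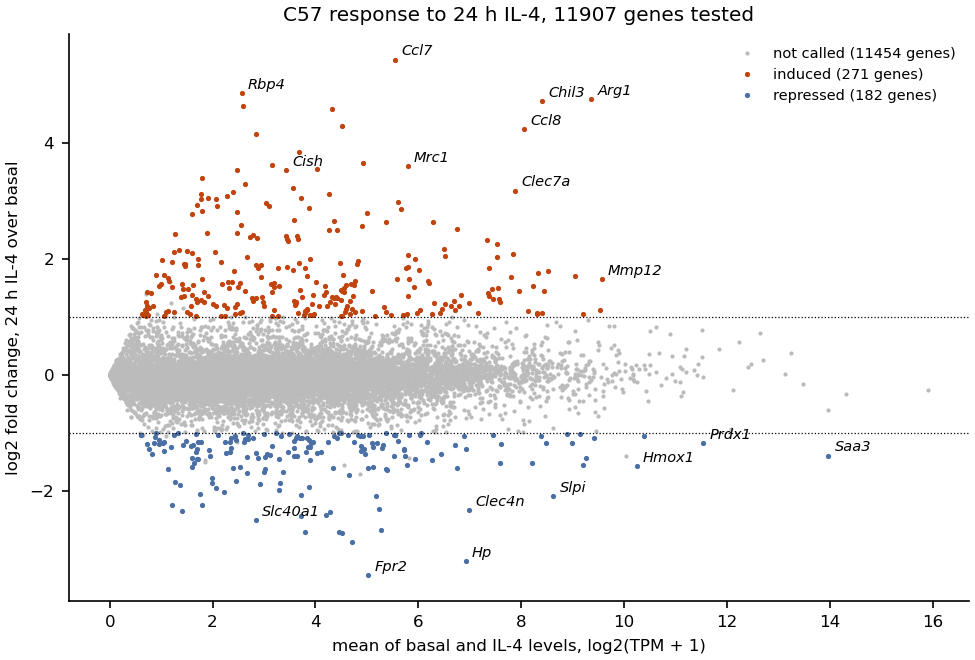
Each point is a gene, with the mean of its basal and IL-4 levels in C57 BMDMs as log2(TPM + 1) on the horizontal axis and its log2 fold change on the vertical axis. Dotted lines mark 2-fold. The 271 induced genes in red reach up to 5.43, and the 182 repressed genes in blue down to -3.45.

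The genes with the largest changes were taken among those whose conditions were apart and whose higher mean was at least 5 TPM, so their separation was fixed by the choice. The largest rise was that of Ccl7, a monocyte-attracting chemokine, which had 6.31, 6.30 and 5.74 TPM in the basal libraries and 331, 322 and 270 TPM with IL-4. This was a 50.3-fold higher mean, with a log2 fold change of 5.43 ± 0.09 (SE) and an adjusted p of 1.31e-23. Rbp4, the carrier of retinol in plasma, was at 0.095, 0 and 0.215 TPM without IL-4 and at 31.3, 28.8 and 32.3 TPM with it, a log2 change of 4.85 ± 0.11. Arg1, which encodes arginase 1, the enzyme that turns arginine into ornithine and urea, went from 124, 117 and 137 TPM to 3340, 3507 and 3386 TPM (log2 change 4.75 ± 0.16) and was then the most abundant of all induced genes. Chil3, a secreted chitinase-like protein also known as Ym1, went from 63.6, 71.2 and 61.3 TPM to 1726, 1855 and 1667 TPM. The next largest rises were those of the chemokines Ccl24, Ccl12, Ccl8 and Ccl2, of Dut (dUTP pyrophosphatase), Ch25h (cholesterol 25-hydroxylase), the galactose-type lectin Mgl2 and the glutathione transferase Gsta2, with log2 changes from 3.61 to 4.63. After Arg1 and Chil3, the induced genes at the highest level were Mmp12 (1341 ± 96.0 TPM, SD, n = 3), a macrophage elastase, Ccl8 (1154 ± 102 TPM) and Lgmn (1094 ± 49.3 TPM), a lysosomal protease. A rise from under 1 TPM in each basal library to at least 10 TPM in each IL-4 library was seen for 7 genes: Rbp4, Ccl24, Ch25h, Pgf (placental growth factor), Scimp, Car2 (carbonic anhydrase 2) and Lrrc32, which presents latent TGF-β on the cell surface. The reverse was seen for 0 genes.

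Under the same limits, the largest fall was that of Fpr2, a receptor for formylated peptides of bacteria and mitochondria. It had 105, 103 and 112 TPM under basal conditions and 7.84, 8.26 and 10.6 TPM with IL-4, a log2 change of -3.45 ± 0.09 with an adjusted p of 2.77e-20. Hp, haptoglobin, which captures free haemoglobin, went from 365, 345 and 397 TPM to 36.3, 39.8 and 40.5 TPM (-3.21 ± 0.10). Slc40a1, ferroportin, the exporter of iron from cells, had 15.6, 17.1 and 14.4 TPM and then 3.33, 1.56 and 1.31 TPM (-2.50 ± 0.14). Slc25a37, mitoferrin, which carries iron into mitochondria, had 42.8, 45.5 and 36.7 TPM and then 7.30, 7.36 and 6.36 TPM. The 2 lower IL-4 libraries of Slc40a1 were close to each other, and library 1 was higher. The other large falls were those of Ifitm6, Ptges (prostaglandin E synthase), Ly6i, Susd2, S100a8, Cav1 (caveolin 1), Fpr1 and Clec4n, with log2 changes from -2.33 to -2.88. Among repressed genes, the most abundant after IL-4 were Saa3, Prdx1, Prdx5, Hmox1 and Clec4d. Prdx5 changed by -1.05 ± 0.06, and by -0.998 without basal library 3, just under the limit. Saa3, a serum amyloid protein made by macrophages, had 25838, 24917 and 27466 TPM in basal libraries and 9183, 10251 and 10365 TPM with IL-4.

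**Figure D2:**
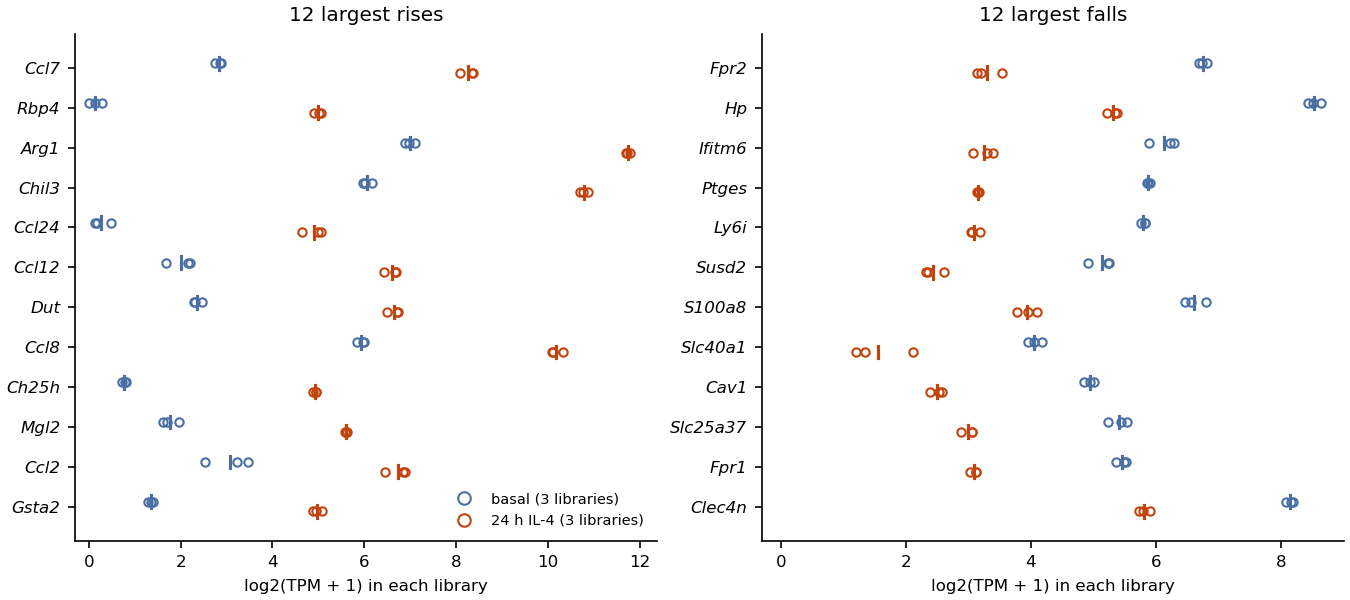
The 12 largest rises and 12 largest falls in C57 BMDMs, among genes chosen for conditions that do not overlap and a mean of at least 5 TPM in the higher condition. Circles are the 3 basal (blue) and 3 IL-4 (red) libraries as log2(TPM + 1), and ticks are means. The rises reach a log2 change of 5.43 (Ccl7) and the falls -3.45 (Fpr2).

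The genes of the IL-4 receptor and its kinases stayed within 2-fold, while 3 inhibitors of the pathway rose. Of 17 tested members of the receptor and signalling list, 0 were induced and 0 repressed, with 2 higher and 4 lower at any fold. Over all tested genes, 2.28% were induced and 1.53% repressed, and 15.0% were higher and 20.5% lower at any fold. The counts of this list were near those shares. Il4ra, the receptor alpha chain, had 33.2, 38.8 and 33.6 TPM and then 37.5, 39.3 and 37.9 TPM, a log2 change of 0.12 ± 0.06 (adjusted p = 0.117). Stat6 had 53.3, 59.0 and 49.2 TPM and then 59.2, 57.6 and 51.2 TPM (0.06 ± 0.06, adjusted p = 0.538). Both genes overlapped between the conditions. Stat5a was higher by a log2 change of 0.66 and Ptpn6, the phosphatase SHP-1, was lower (-0.63), both with conditions apart. Of the 8 SOCS family genes, whose proteins bind activated receptors and kinases and dampen cytokine signals, 3 were induced. Cish rose from 1.86, 2.75 and 1.87 TPM to 36.2, 34.1 and 35.6 TPM (3.53 ± 0.09). Socs1 rose from 1.88, 3.16 and 1.47 TPM to 22.4, 21.4 and 23.1 TPM (2.91 ± 0.20), and Socs2 by 2.13 ± 0.12. Socs3, an inhibitor of signals through gp130, changed by 0.06 ± 0.06 (adjusted p = 0.442).

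Among transcription factors tied to the IL-4 response, 9 of 26 were induced and 0 repressed, and 17 were higher at any fold. For all tested genes, the shares were 2.28% induced, 1.53% repressed and 15.0% higher at any fold. Egr2, a zinc finger factor, went from 14.4, 13.1 and 12.5 TPM to 62.0, 55.5 and 48.7 TPM, a 4.14-fold higher mean with a log2 change of 1.97 ± 0.09. Pparg, a nuclear receptor of fatty acid ligands, went from 4.08, 3.40 and 4.08 TPM to 23.2, 23.8 and 23.4 TPM (2.34 ± 0.08). Irf4, an interferon regulatory factor, went from 0.759, 0.562 and 0.779 TPM to 5.12, 5.26 and 5.53 TPM (1.89 ± 0.10). The basic leucine zipper factors Batf3 (2.38), Nfil3 (1.85) and Batf (1.38), the helix-loop-helix factors Bhlhe40 (1.58) and Tfec (1.27) and the homeobox factor Msx3 (3.28) made up the other induced members. Klf4 and Myc lay just under the 2-fold limit, with log2 changes of 0.99 ± 0.09 and 0.96 ± 0.11. Klf4 passed it without IL-4 library 2 (1.01), IL-4 library 3 (1.02) or basal library 2 (1.10), and Myc without IL-4 library 2 (1.01) or basal library 3 (1.05). Of 11 factors of macrophage identity, 1 was induced and 0 were repressed.

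The list of alternative activation markers had 17 of 19 tested genes induced and 0 repressed, with a median log2 change of 2.88 against -0.04 over all tested genes. This list was compiled from genes known to respond to IL-4 in C57 macrophages, so its direction is no independent evidence. Mrc1, the mannose receptor, went from 15.0, 15.9 and 13.9 TPM to 204, 199 and 172 TPM (3.59 ± 0.09). Pdcd1lg2, the PD-1 ligand PD-L2, went from 0.310, 0.343 and 0.291 TPM to 9.57, 9.65 and 10.4 TPM (3.05 ± 0.11). Itgax, which encodes CD11c, went from 11.2, 11.8 and 10.7 TPM to 82.7, 82.3 and 85.3 TPM (2.79 ± 0.07). For each of the 3, the highest basal library was below the lowest IL-4 library. Cdh1, E-cadherin, rose by 3.12 ± 0.11 and Flt1, a receptor of placental growth factor and VEGF, by 2.93 ± 0.08. Retnla, the resistin-like molecule RELMα that marks alternative activation in vivo, was not among the induced genes. It had 2.97, 3.94 and 4.91 TPM under basal conditions and 5.10, 3.90 and 4.01 TPM with IL-4, with overlapping libraries and a log2 change of 0.12 ± 0.14 (adjusted p = 0.529). Ccl17 was at 0 TPM in each basal library and at 0.659, 1.05 and 0.666 TPM with IL-4.

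Induced genes of arginine handling covered uptake and cleavage. Of the 17 genes of arginine and polyamine metabolism, 4 were induced and 0 repressed, against 2.28% and 1.53% of all tested genes. Besides Arg1, the induced members were the cationic amino acid transporters Slc7a2 (16.6, 16.8 and 15.7 TPM, then 145, 141 and 121 TPM) and Slc7a1 (1.43 ± 0.10), and the mitochondrial arginase Arg2 (1.14 ± 0.06). With a pseudocount of 5 TPM the count was 2, as Arg2 (0.89) and Slc7a1 (0.67) were then under the limit. Nos2, the inducible nitric oxide synthase that competes for arginine, had 56.6, 56.4 and 52.0 TPM and then 65.0, 63.5 and 67.9 TPM, a log2 change of 0.25 ± 0.08 (adjusted p = 0.0130) that stayed within 2-fold.

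Of 18 chemokines, 8 were induced and 1 was repressed, against 2.28% and 1.53% of all tested genes. The induced chemokines were Ccl2, Ccl6, Ccl7, Ccl8, Ccl9, Ccl12, Ccl22 and Ccl24. Ccl8 went from 62.2, 56.7 and 61.9 TPM to 1102, 1272 and 1088 TPM, and Ccl9 from 83.5, 80.7 and 87.0 TPM to 418, 410 and 387 TPM. Ccl24, eotaxin-2, which attracts eosinophils, went from 0.137, 0.390 and 0.103 TPM to 24.0, 30.7 and 32.1 TPM (4.63 ± 0.15), and Ccl22, a ligand of CCR4 on T helper 2 cells, rose by 2.83 ± 0.15. Cxcl10, an interferon-inducible ligand of CXCR3, was the repressed member (9.88, 9.30 and 9.06 TPM, then 3.25, 2.68 and 2.79 TPM). Ccl5, at 1652 ± 55.4 TPM the most abundant chemokine under basal conditions, was lower by 0.45 on the log2 scale. Among 12 receptors for chemoattractants, 3 were induced, among them Ccr1 (1.35 ± 0.08) and the leukotriene B4 receptor Ltb4r1 (1.79 ± 0.15), and 3 repressed. The repressed receptors were Fpr1, Fpr2 and Cx3cr1, the fractalkine receptor, which went from 4.88, 5.03 and 5.04 TPM to 0.304, 0.142 and 0.090 TPM (-2.35 ± 0.09).

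C-type lectin receptors split by gene. Of 13 tested, 4 were induced (Mrc1, Mgl2, Clec7a and Clec10a) and 3 repressed (Clec4n, Clec4e and Clec4d). For all tested genes, the shares were 2.28% induced and 1.53% repressed. Clec7a, dectin-1, a receptor for fungal β-glucan, went from 75.7, 76.1 and 79.8 TPM to 745, 738 and 636 TPM (3.17 ± 0.06). Clec4n, dectin-2, which binds mannan, went from 284, 270 and 294 TPM to 52.0, 59.2 and 54.7 TPM (-2.33 ± 0.06). Clec4e, Mincle, a receptor for mycobacterial glycolipid, went from 1049, 993 and 985 TPM to 403, 391 and 332 TPM (-1.43 ± 0.06), and its partner Clec4d fell by 1.10. Of 14 scavenger and uptake receptors, 3 were induced: Olr1, the oxidized LDL receptor LOX-1 (2.12 ± 0.13), Cd36 (1.42 ± 0.08) and C1qa (1.04 ± 0.13). Of 12 Fc and complement genes, the Fcγ receptors Fcgr2b (86.1 ± 3.62 to 311 ± 20.5 TPM, SD, n = 3) and Fcgr3 (211 ± 13.3 to 573 ± 37.8 TPM) were induced and complement factor B, Cfb, was repressed (500 ± 8.69 to 173 ± 10.7 TPM). Pdcd1lg2 was the only induced gene of 14 for antigen presentation and costimulation. At any fold, 9 of the 14 were higher, which 15.0% of all tested genes were.

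Of 25 genes of matrix, repair and coagulation, 10 were induced and 2 repressed, against 2.28% and 1.53% of all tested genes. Mmp13, a collagenase, went from 3.77 ± 0.371 to 54.5 ± 4.13 TPM (SD, n = 3, log2 change 3.54 ± 0.09). Hbegf, a ligand of the EGF receptor, went from 0.186, 0.211 and 0.195 TPM to 8.48, 8.82 and 9.02 TPM (3.03 ± 0.12). Fn1, fibronectin, rose by 2.09 ± 0.09, and Timp1, a metalloproteinase inhibitor, by 2.34 ± 0.13. Timp1 was not called induced at any time of the time course. F10 and F7, the coagulation factors X and VII, had means of 175 ± 7.15 and 59.4 ± 0.804 TPM under basal conditions and of 512 ± 36.2 and 139 ± 5.40 TPM with IL-4 (SD, n = 3). The repressed members were Pdgfb (-1.24 ± 0.08) and F13a1 (-1.06 ± 0.10), the factor XIII A chain. In the time course, 5 genes of this list were induced and 5 repressed at 24 hours, and in Egr2 fl/fl 8 and 3. Of 19 genes of cathepsins and the lysosome, 3 were induced, Atp6v0d2 (2.32 ± 0.07), a proton pump subunit, Ctsl (1.70 ± 0.05), cathepsin L, and Lgmn (1.12 ± 0.04). Of 16 genes of macrophage fusion, Cdh1, Itgax and Ocstamp were induced.

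The oxysterol, eicosanoid and retinoid lists each held 2 induced genes, where 2.28% of all tested genes were induced and 1.53% repressed. Ch25h, which makes 25-hydroxycholesterol, had 0.652, 0.742 and 0.735 TPM and then 29.7, 30.0 and 28.6 TPM (4.15 ± 0.11). Gpr183, the receptor of a related dihydroxylated cholesterol, rose by 1.01 ± 0.12, and these were the 2 induced genes of the 12 for oxysterols and LXR. The change of Gpr183 was under the 2-fold limit without IL-4 library 1 (0.97), IL-4 library 2 (0.91) or basal library 1 (0.87). Of 12 genes of eicosanoid synthesis, the cyclooxygenases Ptgs1 (1.55 ± 0.09) and Ptgs2 (1.33 ± 0.08) were induced, while Ptges, which acts after them towards prostaglandin E2, fell from 58.1 ± 0.787 to 7.91 ± 0.0941 TPM (SD, n = 3, log2 change -2.73 ± 0.06). Of 7 retinoid genes tested, Rbp4 and Dhrs3, a retinal reductase (197 ± 1.32 to 685 ± 12.3 TPM, SD, n = 3), were induced. The fatty acid list of 18 held 1 induced gene, Cd36, and 1 repressed, Acsl1 (-1.37 ± 0.07), an acyl-CoA synthetase.

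Antioxidant genes were lower with IL-4 throughout the list. NRF2 is a transcription factor that is kept low by KEAP1 and drives genes for glutathione, thioredoxin and haem breakdown. Of 14 genes of this list, 8 were repressed, against 1.53% of all tested genes. All 14 were lower at any fold, which 20.5% of all tested genes were. The median log2 change was -1.19. Gsr, glutathione reductase, went from 74.9, 69.4 and 73.9 TPM to 23.4, 22.0 and 22.4 TPM (-1.64 ± 0.05). Hmox1, haem oxygenase 1, went from 2186, 2095 and 2018 TPM to 722, 710 and 676 TPM (-1.58 ± 0.04). Gclm, a subunit of the enzyme that starts glutathione synthesis, went from 103, 101 and 98.1 TPM to 36.1, 36.0 and 35.8 TPM (-1.46 ± 0.07). In each of these the conditions were apart. The other repressed members were Prdx6 (-1.52), Cat, catalase (-1.28), Nqo1 (-1.26), Sod2 (-1.21) and Prdx1 (-1.18). Prdx1 alone went from 4467 ± 318 to 1970 ± 90.2 TPM (SD, n = 3), and the whole list from summed levels of 7538 to 8064 TPM to levels of 3120 to 3371 TPM. Nfe2l2, which encodes NRF2, and Keap1 were lower at any fold but within 2-fold.

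Of 10 acute-phase and granule genes, 6 were repressed and 0 induced, with a median of -1.53. For all tested genes, the shares were 1.53% repressed and 2.28% induced. Lcn2, lipocalin 2, which binds bacterial siderophores, went from 86.6, 80.3 and 84.2 TPM to 16.4, 16.0 and 15.6 TPM (-2.32 ± 0.10). Slpi, an inhibitor of leukocyte proteases, went from 824, 770 and 849 TPM to 183, 179 and 210 TPM (-2.09 ± 0.06). S100a8, a calcium-binding protein abundant in neutrophils, went from 94.0, 87.1 and 111 TPM to 14.6, 16.1 and 12.7 TPM, and its partner S100a9 from 14.7, 18.4 and 18.1 TPM to 3.51, 7.58 and 3.61 TPM. Summed TPM of the 12 neutrophil markers, which include S100a8 and S100a9, was 174 to 198 in the basal libraries and 65.3 to 80.9 with IL-4. The defining markers Ly6g and Retnlg were at 0 in all 6 libraries, 7 of the 12 markers could be tested, and their part in these falls was not tested.

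Most inflammatory and interferon-stimulated genes stayed within 2-fold in the 6 libraries. Of 28 cytokines and sensors, Ptgs2 and Tlr8 (1.11 ± 0.15) were induced and Tlr2, a receptor of bacterial lipoproteins, was repressed (47.4, 47.9 and 44.8 TPM, then 19.7, 18.0 and 18.6 TPM), while 9 were higher and 13 lower at any fold. Of 26 interferon-stimulated genes, 3 were repressed and 16 were lower at any fold, with a median of -0.41. These 3 were Ifit3 (-1.61 ± 0.14), Cxcl10 and Ifit2 (-1.05 ± 0.14). With a pseudocount of 5 TPM the count was 1, as Cxcl10 (-0.87) and Ifit2 (-0.92) were then under the limit. The change of Ifit2 was under the limit without IL-4 library 3 (-0.87) or basal library 2 (-0.99), as was that of Tlr8 without IL-4 library 1 (0.96). At 24 hours in the time course, 6 interferon-stimulated genes were repressed (list median -0.61), where 2.91% of all genes were. In Egr2 fl/fl it was 10 (-0.93), against 2.04%. Of the cytokines and sensors, 6 were repressed and 2 induced in each of these sets. Among genes of glycolysis (21), oxidative phosphorylation (20), cell cycle (23) and cholesterol synthesis (21), 0 were induced and 0 repressed. At any fold, 9, 3, 3 and 1 of these were higher and 6, 5, 3 and 14 lower. Over all tested genes, 2.28% were induced and 1.53% repressed, and at any fold 15.0% were higher and 20.5% lower. Cholesterol synthesis had the lowest median of the 4 groups, at -0.47. In the time course, 4 genes of glycolysis, 4 of cholesterol synthesis and 1 of the cell cycle were repressed at 24 hours, and 0 were induced. In Egr2 fl/fl, 1 gene of glycolysis was repressed and 1 of the cell cycle induced.

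**Figure D3:**
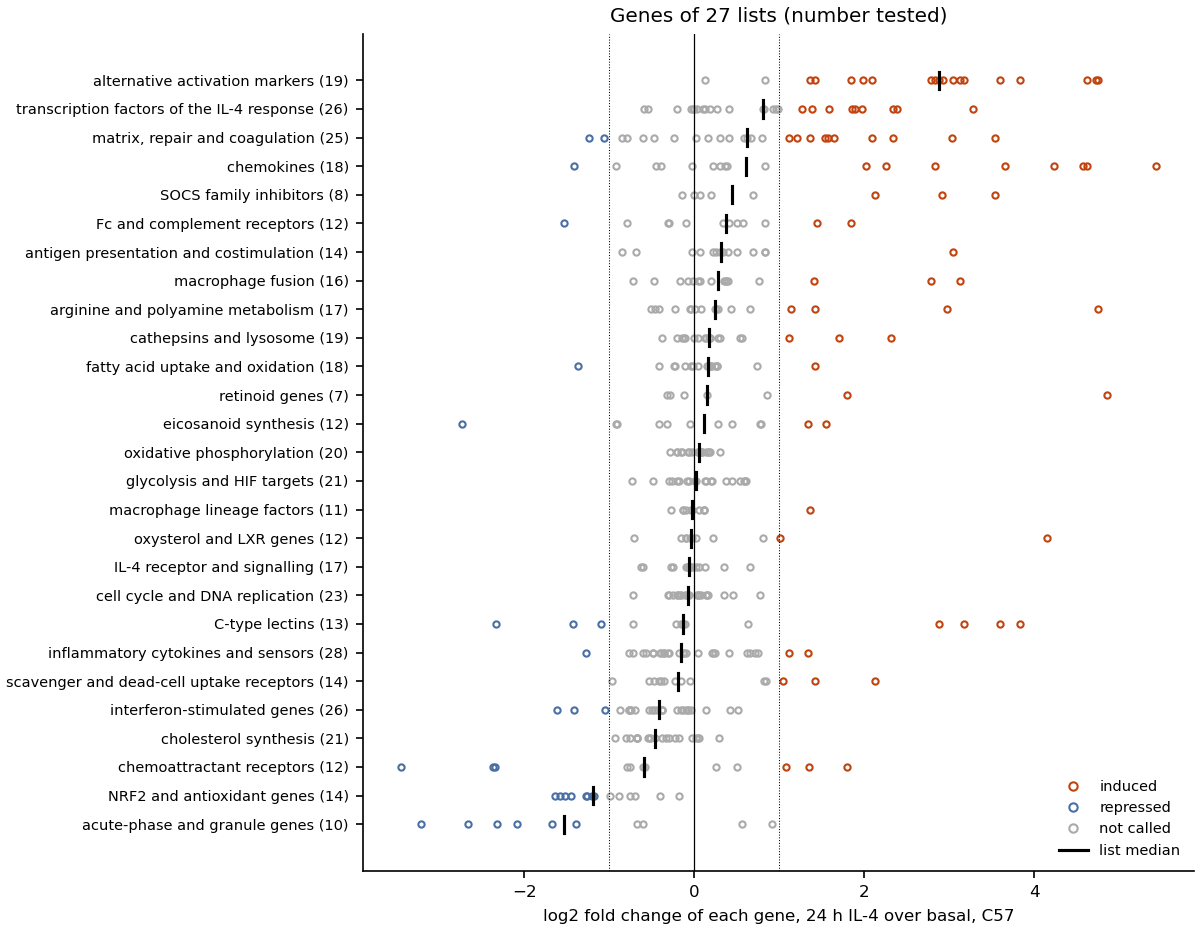
Log2 fold changes of the genes tested in 27 lists in C57 BMDMs, with list medians as black ticks and dotted lines at 2-fold. Alternative activation markers lie furthest to the right with a median of 2.88, and the antioxidant (-1.19) and acute-phase (-1.53) lists furthest to the left.

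Genes that responded lay near each other more often than the tested genes at large. Another induced gene lay within 100 kb of 66 of the 271 induced genes (24.4%), while 5.45% of all tested genes lay that near to an induced gene other than themselves. For repressed genes, 47 of 182 (25.8%) had a repressed neighbour, against 4.96% of all tested genes. On chromosome 11 at chr11:82035577-82116799 (mm10), Ccl2, Ccl7, Ccl12 and Ccl8 were each induced, and they were all 4 tested genes of that span. On chromosome 8 at chr8:12949418-13056676, Mcf2l, F7 and F10 were induced. The repressed groups included Clec4n, Clec4d and Clec4e at chr6:123229843-123289871, Fpr1 and Fpr2 with Spaca6 at chr17:17830975-17893952, and Ifit2, Ifit3 and Ifit3b at chr19:34550694-34613401. Also repressed were the 8 tested Ugt1a genes at chr1:88055411-88220002, which share exons and so cannot be counted as 8 separate changes. Members of such families resemble each other, and reads could be split between them. The neighbour counts include the Ugt1a entries, and microRNA entries (4 of the induced and 10 of the repressed genes). They also include close pairs such as Acss2 with Acss2os, and Csf2rb with Mir7676-1 and Mir7676-2. Such entries can raise the shares with a neighbour, and the shares without them were not computed.

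Promoters were searched for the letters that STAT6 is known to prefer, TTC and GAA with 4 bases between them, which read the same on either strand. RefSeq promoters of 300 bases were matched for 200 of the 271 induced genes, 127 of the 182 repressed and 9043 of the 11907 tested. The letters were present in 19 induced promoters (9.50%), 6.30% of repressed promoters and 5.39% of all tested. With 3 bases between them, the spacing of other STAT proteins, the shares were 7.00%, 11.8% and 6.82%. The promoters of the 4 genes with the largest rise among these 19 are shown because they hold the letters at known positions from the start of the transcript. The build is GRCm38.p6, the gene's own strand is given 5′ to 3′, and capitals mark the letters searched.

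Promoters of 4 induced genes, each named with its position and strand, follow.
Tmem26, chr10:68723496-68723795, plus strand: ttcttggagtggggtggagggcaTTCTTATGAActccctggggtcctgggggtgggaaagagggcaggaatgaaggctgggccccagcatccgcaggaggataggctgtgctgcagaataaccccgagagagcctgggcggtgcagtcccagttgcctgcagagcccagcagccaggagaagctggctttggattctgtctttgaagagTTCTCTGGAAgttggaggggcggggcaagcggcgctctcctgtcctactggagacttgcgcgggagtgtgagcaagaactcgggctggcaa
Clec7a, chr6:129472730-129473029, minus strand: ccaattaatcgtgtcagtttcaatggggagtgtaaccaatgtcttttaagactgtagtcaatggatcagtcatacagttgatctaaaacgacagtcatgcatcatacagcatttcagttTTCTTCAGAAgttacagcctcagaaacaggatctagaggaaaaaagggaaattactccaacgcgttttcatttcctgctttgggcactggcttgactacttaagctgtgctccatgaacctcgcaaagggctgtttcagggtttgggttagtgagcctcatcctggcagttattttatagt
Pdcd1lg2, chr19:29410669-29410968, plus strand: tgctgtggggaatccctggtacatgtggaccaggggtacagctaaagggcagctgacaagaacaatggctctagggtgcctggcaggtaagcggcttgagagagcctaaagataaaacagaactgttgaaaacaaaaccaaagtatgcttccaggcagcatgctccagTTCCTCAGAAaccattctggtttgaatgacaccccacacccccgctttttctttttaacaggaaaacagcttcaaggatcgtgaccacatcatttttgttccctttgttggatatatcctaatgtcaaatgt
Itgax, chr7:128129300-128129599, plus strand: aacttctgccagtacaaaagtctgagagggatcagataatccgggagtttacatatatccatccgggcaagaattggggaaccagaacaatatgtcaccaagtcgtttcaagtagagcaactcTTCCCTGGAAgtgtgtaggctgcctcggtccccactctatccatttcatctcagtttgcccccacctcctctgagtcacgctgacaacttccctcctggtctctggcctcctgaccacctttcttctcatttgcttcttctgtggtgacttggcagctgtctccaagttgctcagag

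Tmem26, a membrane protein of little known function that was named after its values were seen, has 2 such sites, which start at positions -227 and -41. In Clec7a, Pdcd1lg2 and Itgax a single site starts at -131, -82 and -127. A match gives the letters alone, and binding was not measured in these libraries. Tmem26 rose from a mean of 2.86 to 35.0 TPM, a log2 change of 3.22 ± 0.09.

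The response was compared with libraries that had no part in it. In the C57 time course, 262 of the 271 induced genes were tested and 182 were induced at 24 hours (69.5%), where 2.85% of all genes were. In Egr2 fl/fl BMDMs it was 190 of 264 (72.0%), against 2.31% of all genes. These were 52.9% of the 344 genes induced in the time course and 68.1% of the 279 in Egr2 fl/fl. Of the repressed genes, 130 of 177 (73.4%) were repressed at 24 hours in the time course, where 2.91% of all genes were, and 117 of 177 (66.1%) in Egr2 fl/fl, where 2.04% were. These were 36.9% of the 352 and 47.6% of the 246 genes repressed there. In all 3 sets of libraries, 155 genes were induced and 109 repressed. Each table was normalised on its own, so changes and not levels are set side by side. The labels do not give the genetic background of the Egr2 fl/fl mice.

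Some genes had little change in the other sets. Arg2 changed by 0.06 ± 0.10 in the time course and by 0.07 in Egr2 fl/fl, and C1qa by 0.10 ± 0.37 and by 0.25, on the log2 scale. Retnla had 2.95 and 2.95 TPM without IL-4 and 2.81 and 3.13 TPM after 24 hours in the time course, but a log2 change of 3.19 in Egr2 fl/fl BMDMs. Fcgr3 changed by 0.10 ± 0.05 in the time course and by 0.92 in Egr2 fl/fl. A call in the opposite direction in the time course was made for 2 genes. Thbs1, thrombospondin 1, rose from 3.62, 4.81 and 3.97 TPM to 14.4, 14.3 and 13.8 TPM in the 6 libraries but went from 3.11 and 3.40 TPM to 1.11 and 1.00 TPM at 24 hours in the time course (-1.05 ± 0.13). Gdf15, a stress-responsive cytokine, fell from 81.9, 116 and 82.1 TPM to 32.9, 25.4 and 34.7 TPM but went from 20.4 and 29.3 TPM to 58.3 and 67.7 TPM there (1.32 ± 0.22).

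More of the induced than of the repressed genes had already passed the limits at 6 hours. Of the 262 induced genes in the time course, 44 were induced at 1 hour, where 0.703% of all genes were, and 130 at 6 hours, where 1.56% were. Of the 177 repressed genes, 4 were repressed at 1 hour (0.174% of all genes) and 31 at 6 hours (0.571%). By class, 33 genes were induced at each of 1, 6 and 24 hours, 73 at 6 and 24 hours and 73 at 24 hours only, while 55 were not called at any time. For repressed genes, 3 were called at each time, 25 at 6 and 24 hours, 102 at 24 hours only and 44 at none.

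Some genes had risen by 1 hour. Cish had 1.86 and 1.64 TPM at 0 hours, 42.9 and 40.6 TPM at 1 hour, 48.7 and 47.3 TPM at 6 hours and 48.9 and 51.9 TPM at 24 hours, so that it was near its 24-hour level after 1 hour. Socs1 had 1.74 and 4.79 TPM, then 155 and 220 TPM at 1 hour, 68.5 and 85.2 TPM at 6 hours and 22.1 and 34.9 TPM at 24 hours. Egr2 had 63.2 and 64.9 TPM, then 197 and 200 TPM at 1 hour, 168 and 165 TPM at 6 hours and 157 and 166 TPM at 24 hours. For Socs1 and for Egr2, both libraries at 1 hour lay above those of every other time. Ccl7 had 8.57 and 14.3 TPM at 0 hours and 288 and 306 TPM at 1 hour, and Ch25h had 1.43 and 1.19 TPM and then 113 and 106 TPM.

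Arg1 was also induced at 1 hour and was higher at 6 hours. It had 77.0 and 90.8 TPM at 0 hours, 233 and 257 TPM at 1 hour, 2553 and 2592 TPM at 6 hours and 1793 and 2156 TPM at 24 hours. Mrc1 had 76.7 and 75.1 TPM, then 114 and 115 TPM, 366 and 403 TPM, and 315 and 337 TPM. Rbp4 had 0 and 0.158 TPM at 0 hours and still 0.619 and 0.192 TPM at 6 hours, but 37.0 and 28.7 TPM at 24 hours. Chil3 had 101 and 87.0 TPM, 276 and 292 TPM at 6 hours and 2034 and 2022 TPM at 24 hours. Arg1 and Mrc1 were thus at their highest at 6 hours, and Rbp4 and Chil3 at 24 hours.

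Among the falls, Fpr2 had 57.8 and 54.6 TPM at 0 hours, 55.2 and 50.9 TPM at 1 hour, 21.1 and 27.1 TPM at 6 hours and 3.25 and 5.53 TPM at 24 hours. Hp had 170 and 160 TPM, then 156 and 143 TPM, 129 and 113 TPM, and 23.6 and 26.3 TPM. Pdgfb, a growth factor of mesenchymal cells, was among the 3 genes repressed at each time, with 22.5 and 23.9 TPM at 0 hours and 6.88 and 7.66 TPM at 1 hour. Of the 14 antioxidant genes, 9 were repressed at 24 hours in the time course and 8 in Egr2 fl/fl, with list medians of -1.23 and -1.03.

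**Figure D4:**
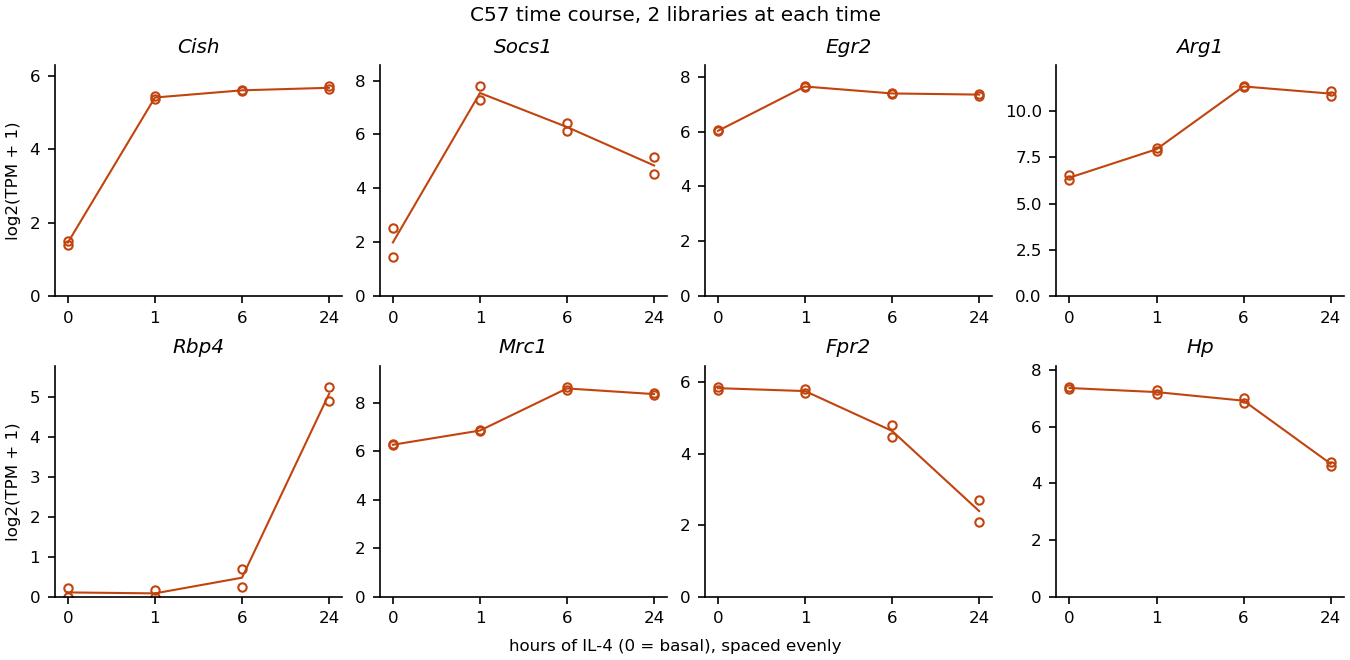
Levels of 8 genes in the C57 time course as log2(TPM + 1), at 0, 1, 6 and 24 hours of IL-4, spaced evenly. Circles are the 2 libraries of each time and lines join their means. Cish, Socs1 and Egr2 were at or near their highest level at 1 hour, and Rbp4 rose and Hp fell mainly between 6 and 24 hours.

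The C57 response was set against those of BALB, NOD, PWK and SPRET in the same 29-library model, by testing the difference of the responses. The 4 tests share the C57 libraries and so are not independent. A larger response in C57 (a greater rise or a lesser fall) past 2-fold at an adjusted p below 0.05 against each of the 4 strains was found for 25 genes (0.210% of those tested), and a smaller one (a lesser rise or a greater fall) for 10 genes (0.0840%). Without C57 IL-4 library 1 the latter count was 16. Ccl7 led the larger ones, with a log2 change of 5.43 in C57 against 2.77 (BALB), 0.87 (NOD), 2.74 (PWK) and 2.01 (SPRET). Its basal mean was 6.12 TPM in C57 and 1.03, 50.5, 32.9 and 0.539 TPM in the others in that order. Pgf rose by 3.53 in C57 and had 0.46, 0.10, 0.79 and 0.19 in the other strains. Its basal mean was 0.64 TPM in C57 and 1.16, 5.27, 0.887 and 0.161 TPM in the others. With IL-4 it was 18.1 TPM in C57 and 1.98, 5.685, 2.26 and 0.352 TPM. Cd83, a marker of activated antigen-presenting cells, rose by 2.39 in C57 and had 0.42, -0.39, 0.19 and 0.38. It started lowest in C57, at a mean of 4.42 TPM against 16.0, 31.4, 9.74 and 6.81 TPM. With IL-4 the means were closer for BALB and NOD, at 27.5 TPM in C57 against 21.7, 23.8, 11.2 and 9.18 TPM. Thbs1 rose by 1.57 in C57 and had -1.27, 0.25, -0.69 and -0.44. Ksr2, a scaffold of the MAP kinase pathway, rose by 2.43 in C57 and had 0.44, 0.11, 0.00 and 0.95. Its mean went from 0.046 to 4.61 TPM in C57 and from 0.018 to 0.970 TPM in SPRET. At levels this low, log2(TPM + 1) understates a rise, so part of such a difference can follow from the level.

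The greater falls of C57 were led by Slc40a1, with a log2 change of -2.50 in C57 against -0.59 (BALB), -0.18 (NOD), -0.04 (PWK) and -1.02 (SPRET). Ifitm6 had -2.88 in C57 and -1.60, -0.60, -1.23 and 0.05 in the others. Acss2, a cytosolic acetyl-CoA synthetase, had -2.07 in C57 and -0.54, 0.04, -0.53 and 0.01. Tnfsf4, OX40 ligand, had -2.05 in C57 and -0.48, -0.48, -0.28 and -0.07. S100a8 had -2.67 in C57 and -1.59, -1.61, -0.19 and -0.50. Gclm and Gsr of the antioxidant list were also among the 10. Some of these genes were barely expressed in other strains without IL-4, where log2(TPM + 1) leaves little room to fall. Basal means of Slc40a1 were 0.185 TPM in PWK and 1.52 TPM in SPRET (0.241 TPM with IL-4), and of Ifitm6 0.043 TPM in SPRET. Those of Tnfsf4 were 0.415 TPM in PWK and 0.212 TPM in SPRET. Acss2 had at least 6.68 TPM and S100a8 at least 44.8 TPM in each strain.

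In the libraries that had no part in the comparison, 9 of the 9 tested genes with a greater fall were repressed at 24 hours in the time course and 8 of 9 in Egr2 fl/fl. Of those with a larger response, 18 of 23 were induced at 24 hours in the time course and 14 of 24 in Egr2 fl/fl, 11 of them in both. Pgf, Thbs1 and Ets2 were induced in neither, and Tgfb3 was not induced in Egr2 fl/fl and could not be tested in the time course. Ets2 was not called in the 6 libraries either. Of all genes called in those 6 libraries and tested in the time course, 73.4% of the repressed and 69.5% of the induced were called alike. In Egr2 fl/fl it was 66.1% and 72.0%. Over all tested genes, 2.91% were repressed and 2.85% induced in the time course, and 2.04% and 2.31% in Egr2 fl/fl. Such a repeat concerns the change with IL-4 and not its difference between strains. As the background of the Egr2 fl/fl mice is not given, their values cannot be tied to C57. Pgf had 0.073 and 0.116 TPM at 0 hours of the time course and 0.636 and 0.632 TPM at 24 hours. The time course also held SPRET libraries, so that C57 and SPRET could be compared there at 24 hours. Of the genes with a larger response, 15 of 23 had the same sign with an adjusted p under 0.05, which 16.1% of all genes had in that direction, and 0 the opposite. Of the 5 genes with the largest mean difference, Ccl7 was among them, with C57 minus SPRET of 3.38 ± 0.41 (adjusted p = 6.60e-05). The difference did not pass for Cd83 (-0.07, adjusted p = 0.683), Ksr2 (0.06, adjusted p = 0.842), Thbs1 (0.26, adjusted p = 0.338) and Pgf (0.49, adjusted p = 0.203), nor for Ccl2 (-0.12, adjusted p = 0.810). Of the genes with a smaller response, it was 8 of 9, against 12.8% of all genes, the exception being Slc40a1 (-0.65 ± 0.23, adjusted p = 0.0522).

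Most of the antioxidant genes had a smaller response (a greater fall) in C57 than in the other strains. Among the 14, the C57 response was smaller at any fold than that of BALB in 13, of NOD in 13, of PWK in 13 and of SPRET in 12. Of all tested genes, 5.43%, 26.0%, 16.8% and 24.4% had a smaller response in C57 by the same measure. The list medians were -0.22 in BALB and NOD, -0.19 in PWK and -0.21 in SPRET, against -1.19 in C57. The summed basal level of the list was 7538 to 8064 TPM in C57, against 4786 to 5055 TPM (BALB), 5612 to 5804 TPM (NOD), 3663 to 3745 TPM (PWK) and 2218 to 2281 TPM (SPRET). With IL-4 it was 3120 to 3371 TPM in C57, against 4105 to 4453 TPM (BALB), 3863 to 4251 TPM (NOD), 2679 to 2729 TPM (PWK) and 1195 to 1216 TPM (SPRET). C57 thus had the highest sums of the 5 strains under basal conditions and lay below BALB and NOD with IL-4. The sums rest largely on Prdx1 and Hmox1, with basal means of 4467 and 2100 TPM in C57 and 2474 and 2177 TPM in NOD. With IL-4 these were 1970 and 703 TPM in C57 and 1711 and 1626 TPM in NOD. Basal means of Keap1, Nqo1, Gclm, Srxn1, Gsr and Prdx1 were highest in C57. Those of the other genes of the list were higher in some other strain. In the time course, the C57 response was smaller than that of SPRET at any fold in 11 of the 14 genes and larger in 0, where 12.8% of all tested genes were smaller and 16.1% larger.

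**Figure D5:**
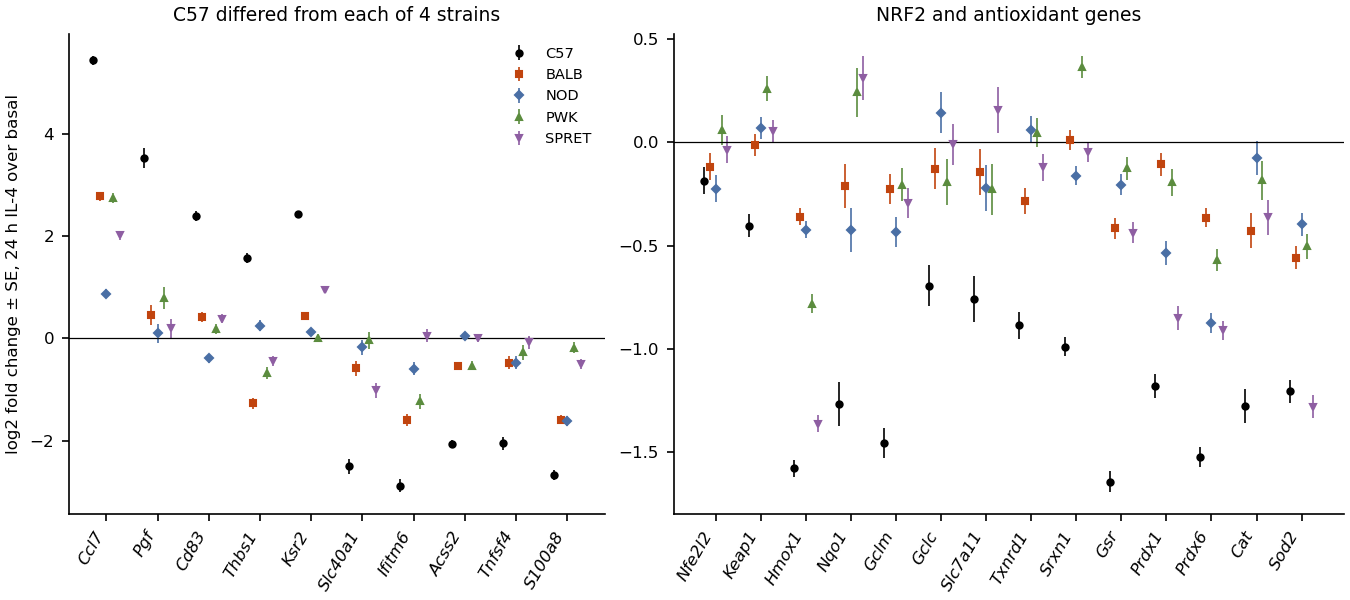
Log2 fold changes ± SE after 24 hours of IL-4 in 5 strains, on the left for 10 genes whose C57 response differed from each of the other 4 and on the right for 14 antioxidant genes. C57 (black circles) lies apart from the other symbols on the left, and is lowest on the right in all but Nfe2l2 and Sod2.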

How the data were processed

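RNA-seq of poly(A) RNA from BMDMs was analysed from the authors' 3 tables of TPM (29 libraries of 5 strains, 16 of a C57 and SPRET time course and 16 of an Egr2 knockout). The authors used STAR 2.5.3 for alignment to strain genomes and MMARGE 1.0 to bring positions onto mm10, and they computed the deposited TPM values with HOMER 4.11.1 over exons. The submitters' processing notes also name DESeq2, and the authors' DESeq2 fold changes and p-values in the tables were not used. The libraries were dUTP-marked, but whether strand was used in counting is not stated, so antisense partners and near-identical paralogs are uncertain. No counts per gene were given, so precision was taken from replicates. Total tags ranged from 7.02 to 22.5 M in the 5 strains, from 5.70 to 24.0 M in the time course and from 4.69 to 32.9 M in the Egr2 table.

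The 24537 genes of the main table were filtered to the 11907 that reached 1 TPM in 2 or more libraries (12088 and 12079 in the other tables). Values of log2(TPM + 1) were fitted with limma 3.58.1 in R 4.3.3, with a mean for each group, all libraries of a table in 1 model, and an empirical Bayes prior with a trend. Benjamini-Hochberg adjustment ran over the genes tested, and genes were called over 2-fold with an adjusted p under 0.05. Differences between strains were interaction contrasts. The procedure was tested on simulated data for C57 with 11907 genes, in which 100 of 100 genes with a log2 change of 1.5 and 99 of 100 with a change of 2 were called, with 0 false calls. The changed genes were drawn from those at moderate or high basal levels, with normal noise of each gene's own spread. Recovery of genes at low levels or with changes near 2-fold was not tested. Promoters came from RefSeq, GRCm38.p6. Figures were drawn with matplotlib.

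Genes were named by rule: the 12 largest rises and falls with the conditions apart and at least 5 TPM in the higher one, members of 27 gene lists and 10 marker lists, the 5 most abundant called genes in each direction, genes that went from under 1 to at least 10 TPM or the reverse, the 5 genes furthest from the other strains in each direction, and genes called oppositely in the time course. Others are marked or stand as neighbours. The comparisons, lists and rules were chosen with earlier results of these data known. Lists are described by counts and medians, with no set test. Markers of macrophages and of 9 other cell types were summed. Other settings tried were a lower and a higher pseudocount, no filter and a stricter one, quantile normalization, median-ratio scaling, a robust prior, a replicate block, only the 6 C57 libraries and leaving out libraries. The comparison of C57 with SPRET in the time course was added after the data were seen. Values of a few single genes are not reported here. Human and F1 cells and chromatin data were not analysed here.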

Additional observations from a re-analysis of the deposited data

Results flagged for a closer look

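These results stood out because the C57 response differed from that of each of the other 4 strains by a test of the difference itself. The value given is the difference nearest to 0 of the 4, in log2 units as C57 minus the other strain. The C57 response was larger by at least 2.66 for Ccl7 and 2.74 for Pgf, by 1.97 for Cd83, 1.47 for Ksr2, 1.35 for Ccl2, 1.32 for Thbs1, 1.07 for Tgfb3, 1.02 for Ets2 and 1.00 for Flt1. It was smaller for Tnfsf4 (-1.57), Acss2 (-1.53), Slc40a1 (-1.48), Ifitm6 (-1.29), Gsr (-1.21), S100a8 (-1.06) and Gclm (-1.02). Each passed an adjusted p under 0.05 in all 4 limma contrasts, which share the C57 libraries. Levels before IL-4 differed between strains. Cd83 and Pgf were higher in NOD than in C57, and Slc40a1, Ifitm6 and Tnfsf4 were under 1 TPM in PWK or SPRET. The mean of Flt1 went from 0.173 to 7.93 TPM in C57, from 0.017 to 1.38 TPM in BALB and from 2.81 to 13.5 TPM in SPRET. That of Ksr2 went from 0.046 to 4.61 TPM in C57 and from 0.018 to 0.970 TPM in SPRET. Near 0 TPM, log2(TPM + 1) understates a rise. In the time course, the difference of C57 from SPRET at 24 hours was not past an adjusted p of 0.05 (limma) for Cd83 (-0.07), Ksr2 (0.06), Ccl2 (-0.12), Thbs1 (0.26), Pgf (0.49) or Slc40a1 (-0.65), Tgfb3 could not be tested, and Thbs1 was repressed in C57 there (-1.05).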

How the results depend on the processing

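The pseudocount moved the counts most. With 0.1 TPM in place of 1 TPM, 412 genes were induced and 350 repressed in C57 at 24 hours, 585 were repressed in the time course and 43 had a larger response in C57 than in each other strain. With 5 TPM, the counts were 160 and 80 in C57, 216 and 169 in the time course, 160 and 122 in Egr2 fl/fl, and 12 larger and 6 smaller. A pseudocount weighs genes at low levels by construction. Of 16 list counts followed, 2 changed by over 1.5 times, both with 5 TPM, from 4 to 2 induced arginine genes and from 3 to 1 repressed interferon-stimulated genes. Median-ratio scaling gave 282 and 151 genes in C57, quantile normalization 282 and 175, the filter of 5 TPM 240 and 162, no filter 272 and 175, the robust prior 271 and 175, and the 6 C57 libraries alone 272 and 165. Leaving out a library gave 261 to 290 induced and 157 to 199 repressed genes in C57, 337 to 363 and 333 to 404 in the time course, and 276 to 282 and 242 to 259 in Egr2 fl/fl. It gave 24 to 30 larger and 10 to 16 smaller responses, with 16 without C57 IL-4 library 1. Of 127 genes named, 104 kept their call under each alternative and 0 changed sign while called. Of the 23 that gained or lost a call, 18 lost it with 5 TPM (Arg2, Cx3cr1, Cxcl10, F13a1, Fn1, Gpr183, Ifit2, Ifit3b, Irf4, Ksr2, Ocstamp, Pdgfb, Slc7a1, Socs2, Spaca6, Tgfb3, Tlr8 and Tnfsf4).

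Replicate numbers were not taken to pair the C57 libraries, as deviations of same-numbered ones correlated with r of 0.031, -0.085 and 0.073. In BALB, r was 0.333, 0.153 and 0.089, and in the other 3 strains it lay between -0.081 and 0.045. With the replicate block, 275 and 187 genes were called in C57, 344 and 357 in the time course, 277 and 243 in Egr2 fl/fl, and 27 larger and 12 smaller in C57. It changed the call of 0 of the genes named. Counts per gene were not in the tables, so the depth behind low values is unknown.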
